A study of Homo sapiens with 12 samples.

Results

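Respiratory complex I (NADH:ubiquinone oxidoreductase) is described here through the transcripts of its nuclear-encoded subunits and assembly factors in MDA-MB-231 cells, an established human line of triple-negative breast cancer. The members were every gene whose symbol begins with NDUF followed by A, B, C, S or V, together with ECSIT, ACAD9, TMEM126B, FOXRED1, NUBPL, TIMMDC1 and COA1, each read from its brightest probe set with exactly 1 symbol. This gave 38 of the 11963 genes measured. They comprised 28 subunits, 9 assembly factors and NDUFB2-AS1, an antisense RNA that met the rule by its symbol. Of the 53 protein-coding genes in RefSeq that meet the rule, 37 were named by such a probe set, 4 lay on probe sets with several symbols and are given apart, and 12, among them ACAD9, FOXRED1 and TIMMDC1, were not analysed here. The 7 subunits encoded by mitochondrial DNA were not analysed here either.

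The cells were treated for 24 h with the vehicle DMSO, with rotenone, with digoxin or with manassantin, and each of the 4 groups had 3 Affymetrix GeneChip arrays. The labels name no genetic change in any group. Rotenone is a plant compound that inhibits complex I, digoxin a cardiac glycoside, an inhibitor of the Na,K-ATPase, and manassantin a plant lignan, named manassantin A in the series' design text. That text has digitoxin, a related glycoside, in place of the digoxin of the sample titles, so which of them the cells received cannot be told from the labels; the titles' name is used. The sources used here give no doses. The labels do not say that the 3 arrays of a group were separate cultures, and p-values therefore reflect no more than the spread among these samples, possibly technical.

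Complex I is the entry point of electrons from NADH into the respiratory chain of the mitochondrial inner membrane. Its matrix arm oxidises NADH through a flavin and passes electrons along iron-sulfur clusters to ubiquinone, and its membrane arm pumps protons. Core subunits carry out catalysis, accessory subunits surround and stabilise them, and assembly factors help to build the enzyme without remaining in it. Rotenone acts on the enzyme at the site where ubiquinone binds.

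All levels are log2 values of 1 probe set. Dim here means a mean over the 12 arrays below 5.747, the 40th percentile over genes; this is a coarse rank across probe sets, and levels of different genes are not otherwise compared. Markers of the line were bright, with VIM at 13.187 and AXL at 12.49 (log2 means over 12 arrays), and the luminal and epithelial markers PGR (2.403) and CDH1 (3.591) were dim. ESR1, ERBB2, EPCAM and GATA3 lay between 6.194 and 8.002. The markers of blood and liver, PTPRC, CD3E, CD14 and ALB, were all dim. The 18S rRNA control differed from DMSO by -0.565 (log2) with manassantin, -0.388 with rotenone and -0.314 with digoxin (exact permutation tests, two-sided, p = 0.3, 0.2 and 0.2, where 3 against 3 arrays allow no p below 0.1). The 3′ minus 5′ difference of the spike-in control dap was larger than with DMSO by 0.576, 0.191 and 0.252 in the same order, and that of thr by 0.394, 0.246 and 0.331 (exact permutation tests, two-sided, p = 0.2 to 0.7). The part of the spike-in differences in the results was not tested. A fit with 18S as a covariate called 0, 0 and 21 of the 38 complex I genes, and 0.0251%, 2.83% and 50.2% of all genes, so its counts of 0 come with few calls anywhere. In bulk RNA, fewer cells of a kind and less RNA per cell cannot be told apart.

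Promoters of respiratory genes are known for binding sites of NRF-1, of ETS-family factors such as GABP, and of YY1, so start regions of some members are shown first. The first 6 hold such a match and change in a comparison described here. They are a selection, and members that meet the same terms are not shown. These are NDUFS1, NDUFA13 and NDUFS3 with ETS matches and NDUFA6 and NDUFA7 with YY1 matches. Of those left out, NDUFS3 and NDUFA7 fell with digoxin and the others rose. ECSIT and NUBPL, the members with the largest rise and the largest fall with digoxin, hold none and are shown beside the first 6. NDUFS7 carries the last iron-sulfur cluster before ubiquinone, NDUFS4 and NDUFA9 are accessory subunits of the matrix arm, NDUFA3 and NDUFA8 are accessory subunits of the membrane arm, and NDUFAF4, ECSIT and NUBPL are assembly factors. The first 4 rose with digoxin, NDUFA8 was the subunit with the largest fall, and NDUFAF4 was the member that separated manassantin from rotenone. Each sequence runs 5′ to 3′ on the gene's strand from 170 bases before to 30 bases after the start site (RefSeq, GRCh38.p14). Capitals mark matches on either strand to AAGATGGC (YY1), CCGGAAG (ETS) or a 10-letter NRF-1 motif, seen in capitals upstream in NDUFA9.
NDUFS7: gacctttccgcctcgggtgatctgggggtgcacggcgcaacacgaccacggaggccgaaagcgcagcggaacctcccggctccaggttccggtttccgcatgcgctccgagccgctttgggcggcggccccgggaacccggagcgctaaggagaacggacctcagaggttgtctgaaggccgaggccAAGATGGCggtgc
NDUFS4: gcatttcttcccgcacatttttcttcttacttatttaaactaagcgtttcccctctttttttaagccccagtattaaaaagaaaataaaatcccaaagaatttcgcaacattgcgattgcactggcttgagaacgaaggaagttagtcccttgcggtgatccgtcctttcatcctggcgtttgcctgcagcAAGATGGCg
NDUFA9: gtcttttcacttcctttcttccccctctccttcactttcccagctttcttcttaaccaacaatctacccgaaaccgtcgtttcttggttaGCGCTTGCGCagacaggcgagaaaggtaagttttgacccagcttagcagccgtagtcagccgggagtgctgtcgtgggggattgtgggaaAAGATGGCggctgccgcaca
NDUFA3: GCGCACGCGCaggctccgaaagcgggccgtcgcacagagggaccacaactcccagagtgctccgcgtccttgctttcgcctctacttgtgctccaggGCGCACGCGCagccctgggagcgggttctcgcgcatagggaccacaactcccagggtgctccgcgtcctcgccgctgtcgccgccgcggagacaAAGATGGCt
NDUFA8: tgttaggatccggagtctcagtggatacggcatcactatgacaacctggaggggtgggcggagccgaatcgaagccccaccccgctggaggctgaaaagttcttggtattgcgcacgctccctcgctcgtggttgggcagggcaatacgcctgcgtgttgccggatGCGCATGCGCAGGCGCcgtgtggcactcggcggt
NDUFAF4: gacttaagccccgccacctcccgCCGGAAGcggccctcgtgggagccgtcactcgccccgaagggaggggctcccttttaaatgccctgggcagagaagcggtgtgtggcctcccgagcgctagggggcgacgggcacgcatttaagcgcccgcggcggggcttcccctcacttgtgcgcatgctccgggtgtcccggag
ECSIT: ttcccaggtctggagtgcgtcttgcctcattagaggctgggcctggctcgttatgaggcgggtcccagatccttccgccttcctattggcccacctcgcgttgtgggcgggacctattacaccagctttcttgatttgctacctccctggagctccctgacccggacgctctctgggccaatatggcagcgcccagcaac
NUBPL: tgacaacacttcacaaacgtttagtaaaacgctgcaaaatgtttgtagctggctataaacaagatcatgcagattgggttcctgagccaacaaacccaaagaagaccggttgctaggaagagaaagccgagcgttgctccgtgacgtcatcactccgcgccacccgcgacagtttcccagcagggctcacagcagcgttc
The regions are chr19:1383737-1383936 (plus strand) for NDUFS7, chr5:53560469-53560668 (plus) for NDUFS4, chr12:4648944-4649143 (plus) for NDUFA9, chr19:54102685-54102884 (plus) for NDUFA3, chr9:122159750-122159949 (minus) for NDUFA8, chr6:96897862-96898061 (minus) for NDUFAF4, chr19:11529105-11529304 (minus) for ECSIT, at the upstream of its 2 listed starts, and chr14:31561234-31561433 (plus) for NUBPL. Counting from 1 at the first transcribed base, the YY1 letters began at position 18 in NDUFS7, 22 in NDUFS4, 11 in NDUFA9 and 22 in NDUFA3, all downstream of the start and on the gene's own strand. NDUFA9 and NDUFA3 also held NRF-1 letters upstream, 2 matches in the case of NDUFA3. In NDUFA8 the capitals are 2 overlapping NRF-1 matches, one across the start (-4 to 6) and the other downstream of it (3 to 12). NDUFAF4 held a single ETS match, at positions -147 to -141.

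Over windows of 300 bases (250 before to 50 after the start), 37 members had a promoter in the table. YY1 letters were found for 18.9% of these genes, against 5.70% of the 9563 measured genes with a promoter and 3.52% of all 27305 genes of the table. The NRF-1 letters were found for 13.5% against 10.8% and 6.98%, and the ETS letters for 18.9% against 17.8% and 12.2%. A match to any of the 3 was present for 45.9% of complex I genes, 29.9% of measured genes and 20.0% of all genes. The 7 members with YY1 letters were NDUFS4, NDUFS7, NDUFA3, NDUFA6, NDUFA7, NDUFA9 and NDUFB8, all of them subunits. With digoxin, described below, 5 of these rose, NDUFA7 fell and NDUFB8 did not pass the test. Of the 14 members that rose in all, YY1 letters were present for 35.7%, NRF-1 letters for 14.3% and ETS letters for 14.3%. Of the 6 that fell, each of the 3 was present for 16.7%, and a match to any of them was present for 7 of the 14 and 3 of the 6. With digoxin 28.0% of all genes rose. These shares are descriptions of letters in a window and carry no test.

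**Figure D1:**
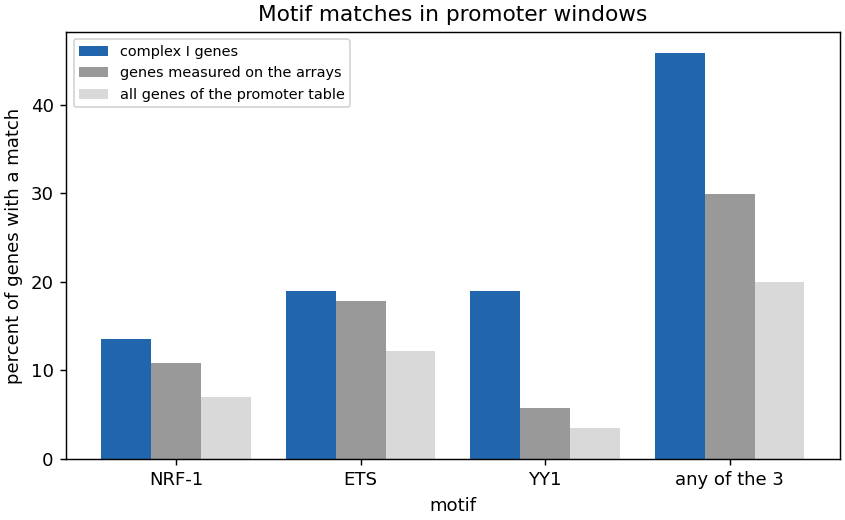
Percent of genes (vertical axis) with at least 1 match to each motif (horizontal axis) in a promoter window of 300 bases, for complex I genes (blue), genes measured on the arrays (grey) and all genes of the promoter table (light grey). The YY1 share of complex I genes is 18.9%, against 5.70% of measured genes, and the ETS shares are 18.9% and 17.8%.

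Manassantin left no complex I gene past the threshold. Of the 38 members, 0 had a limma Benjamini-Hochberg adjusted p under 0.05 against DMSO, the threshold at which a gene is called here, where 0.970% of all genes (116) were called. Only 4 members are dim, against 40% of all genes by definition. With dim genes left out, 0 members were called, against 6.84% of the genes left. At an unadjusted p under 0.05 there were 4 members, against 15.8% of all genes. The members' log2 differences ran from -0.322 (NUBPL) to 0.168 (NDUFA3), with a median of 0.0242. Their median size, regardless of sign, was 0.0483, and that of all genes was 0.0747. The difference lay within a 1.25-fold change in either direction for 37 members and for 98.8% of all genes. Its 95% confidence interval lay within that limit for 36 members, all 28 subunits and 7 of 9 assembly factors among them.

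The members furthest from DMSO with manassantin were NUBPL, NDUFAF7 and NDUFA3, chosen for naming after their values were seen. NDUFA3, a small membrane-spanning subunit, read 9.871, 9.916 and 9.924 with DMSO and 10.04, 10.148 and 10.027 with manassantin. All 3 manassantin arrays were above all 3 DMSO arrays, but the difference of 0.168 (SE 0.053) did not pass the test (limma adjusted p = 0.146). NUBPL, which delivers iron-sulfur clusters to complex I, was dim by its mean over the 12 arrays, though not with DMSO, and read 5.961, 6.001 and 6.245 with DMSO and 5.821, 5.679 and 5.74 with manassantin. Its groups did not overlap either, and its difference was -0.322 (SE 0.111, limma adjusted p = 0.175). NDUFAF7, another assembly factor, differed by -0.178 (SE 0.095, limma adjusted p = 0.4), and its groups overlapped. Groups without overlap were found for 7 members, 18.4%, against 22.4% of all genes. NDUFV1, which binds NADH and the flavin, differed by 0.124 (limma adjusted p = 0.299) and NDUFA13 by 0.131 (limma adjusted p = 0.246). The remaining named members lay at -0.037 for NDUFS1, 0.119 for NDUFS7, 0.00983 for NDUFAB1 and 0.0772 for ECSIT.

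Rotenone, an inhibitor of the enzyme itself, also left no complex I gene past the threshold. Of the 38 members 0 were called, where 6.94% of all genes (830) were, and 3 members against 21.3% of all genes had an unadjusted p under 0.05. With dim genes left out, 1 member (NDUFAF4) was called, against 18.1% of the genes left. The log2 differences ran from -0.245 (NUBPL) to 0.224 (NDUFAF4), with a median of 0.0189. Their median size was 0.0405, and that of all genes 0.0824. All 38 members had a difference within 1.25-fold, as did 96.2% of all genes. The 95% confidence interval lay within it for 34 members, which were all 28 subunits, 5 of 9 assembly factors and NDUFB2-AS1. Among the core subunits the differences were -0.051 for NDUFS1, -0.0336 for NDUFS7, 0.0311 for NDUFV1, -0.0127 for NDUFV2 and 0.00798 for NDUFS3. ECSIT differed by 0.0433 and the acyl carrier NDUFAB1 by 0.0336.

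The 3 members under an unadjusted p of 0.05 were all assembly factors. NDUFAF4 was the closest to the threshold, at 0.224 (SE 0.0624, limma adjusted p = 0.053), and its groups did not overlap. It passed in 6 of 16 alternative fits, among them quantile normalization (limma adjusted p = 0.0437) and the fit without dim genes (0.0191). COA1, known for roles in the assembly of complex IV and complex I, differed by -0.158 (limma adjusted p = 0.125), and its 3 rotenone arrays (8.059, 8.183 and 8.151) all lay below the DMSO arrays (8.242, 8.351 and 8.275). Its other, dim probe set differed by -0.0386, and the mean of both by -0.0985. NUBPL differed by -0.245 (limma adjusted p = 0.228), and its rotenone arrays overlapped the DMSO arrays. That value was -0.156 without rotenone replicate 1 and -0.157 without DMSO replicate 3. Groups without overlap were found for 7 members, 18.4%, against 31.2% of all genes.

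**Figure D2:**
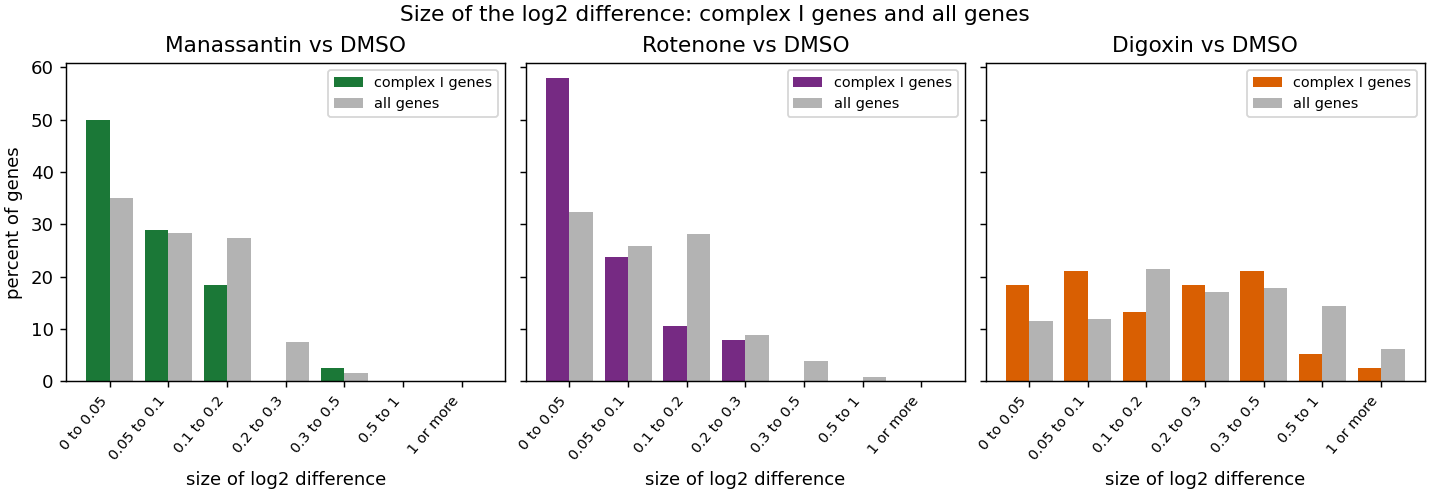
Percent of genes (vertical axis) by size of the log2 difference from DMSO, regardless of sign (horizontal axis, bins), for complex I genes (coloured bars) and all genes (grey bars), 1 panel per compound. In the lowest bin, under 0.05, lie 19 of the 38 complex I genes and 35.0% of all genes with manassantin, 22 and 32.3% with rotenone, and 7 and 11.6% with digoxin.

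The direct comparison of manassantin with rotenone gave 1 complex I gene. NDUFAF4, which acts with NDUFAF3 early in the assembly of the quinone-binding part of the matrix arm, was lower with manassantin. It read 9.136, 9.205 and 9.284 with DMSO, 9.345, 9.488 and 9.465 with rotenone, 9.079, 9.197 and 9.171 with digoxin, and 9.041, 9.169 and 9.186 with manassantin. The rotenone arrays were the 3 highest of the 12, and the other groups overlapped one another. Manassantin minus rotenone was -0.301 (SE 0.0624, 95% confidence interval -0.437 to -0.164, limma adjusted p = 0.0133), a level 0.812 times that with rotenone. The call is not firm. In fits with no term but group, it was lost without rotenone replicate 2 (limma adjusted p = 0.0584), rotenone replicate 3 (0.0555) or manassantin replicate 1 (0.0548). With the replicate number as a block, its limma adjusted p was 0.00239, and 11.3% of all genes were called.

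That single member is 2.63% of the 38, where 8.47% of all genes (1013) were called between the compounds. With dim genes left out, 2 members (NDUFAF4 and COA1) were called, against 21.5% of the genes left. Beside NDUFAF4, COA1 (0.163, limma adjusted p = 0.103) and NDUFS7 (0.152, limma adjusted p = 0.149) had an unadjusted p under 0.05, against 23.4% of all genes. The dim probe set of COA1 went the other way (-0.256), and the mean of both stood at -0.0465. The difference lay within 1.25-fold for all 38 members and 95.8% of all genes, and its 95% confidence interval for 35 members, all 28 subunits among them, with subunit differences from -0.027 (NDUFC1) to 0.152 (NDUFS7). The smallest were those of NDUFS1 (0.014), NDUFAB1 (-0.0238) and ECSIT (0.0339) among the genes named throughout, and NDUFV1 differed by 0.0925. The groups did not overlap for NDUFAF4 and COA1, 5.26% of members against 29.2% of all genes.

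Digoxin moved 20 of the 38 complex I genes, 14 up and 6 down. This share, 52.6%, was close to that of all genes, 54.8% (6561 genes), but 4 members are dim, against 40% of all genes by definition. With dim genes left out, these 4 members among them, 19 members were called, 15 higher and 4 lower. Of all genes then left, 73.0% were called, 33.2% higher and 39.8% lower. The share called was smaller among the members left, with a larger share higher and a smaller share lower. The 14 that rose were 36.8% of members against 28.0% of all genes, and the 6 that fell 15.8% against 26.9%. The changes were modest: the members' median size was 0.191 (log2) against 0.228 over all genes, and 1 member, NUBPL, changed at least 2-fold, where 727 genes did. The median difference was 0.0492 for members, 0.0651 for all genes and -0.0283 for genes not dim, whose median size was 0.289. At an unadjusted p under 0.05 there were 21 members, against 60.1% of all genes. Groups without overlap were found for 27 members, 71.1%, against 61.9% of all genes.

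The split into rises and falls depends on the scaling of the arrays. Centring every array on its median moved the median of all genes by 0.187 and called 26 members higher and 3 lower, where it called 6952 of all genes (58.1%) higher and 2158 lower. Quantile normalization called 13 members higher and 8 lower, and 29.6% and 24.7% of all genes. Falls smaller than that shift became rises under centring, so their direction is not settled. Rises grew under it, as NDUFB2 did from 0.1 to 0.287, though quantile normalization put that gene at 0.0479. NUBPL, NDUFAF7 and NDUFA8 fell under each scaling. NDUFS3, NDUFA7 and NDUFAF3 lost their call under centring, where NDUFS3 stood at 0.0205, NDUFA7 at -0.0526 and NDUFAF3 at -0.0808. Under centring NDUFB5 (0.147), NDUFB6 (0.123) and TMEM126B (0.104) were called higher, though each lay below 0 without it. Of the 14 rises, NDUFV1 lost its call under quantile normalization (limma adjusted p = 0.0511).

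**Figure D3:**
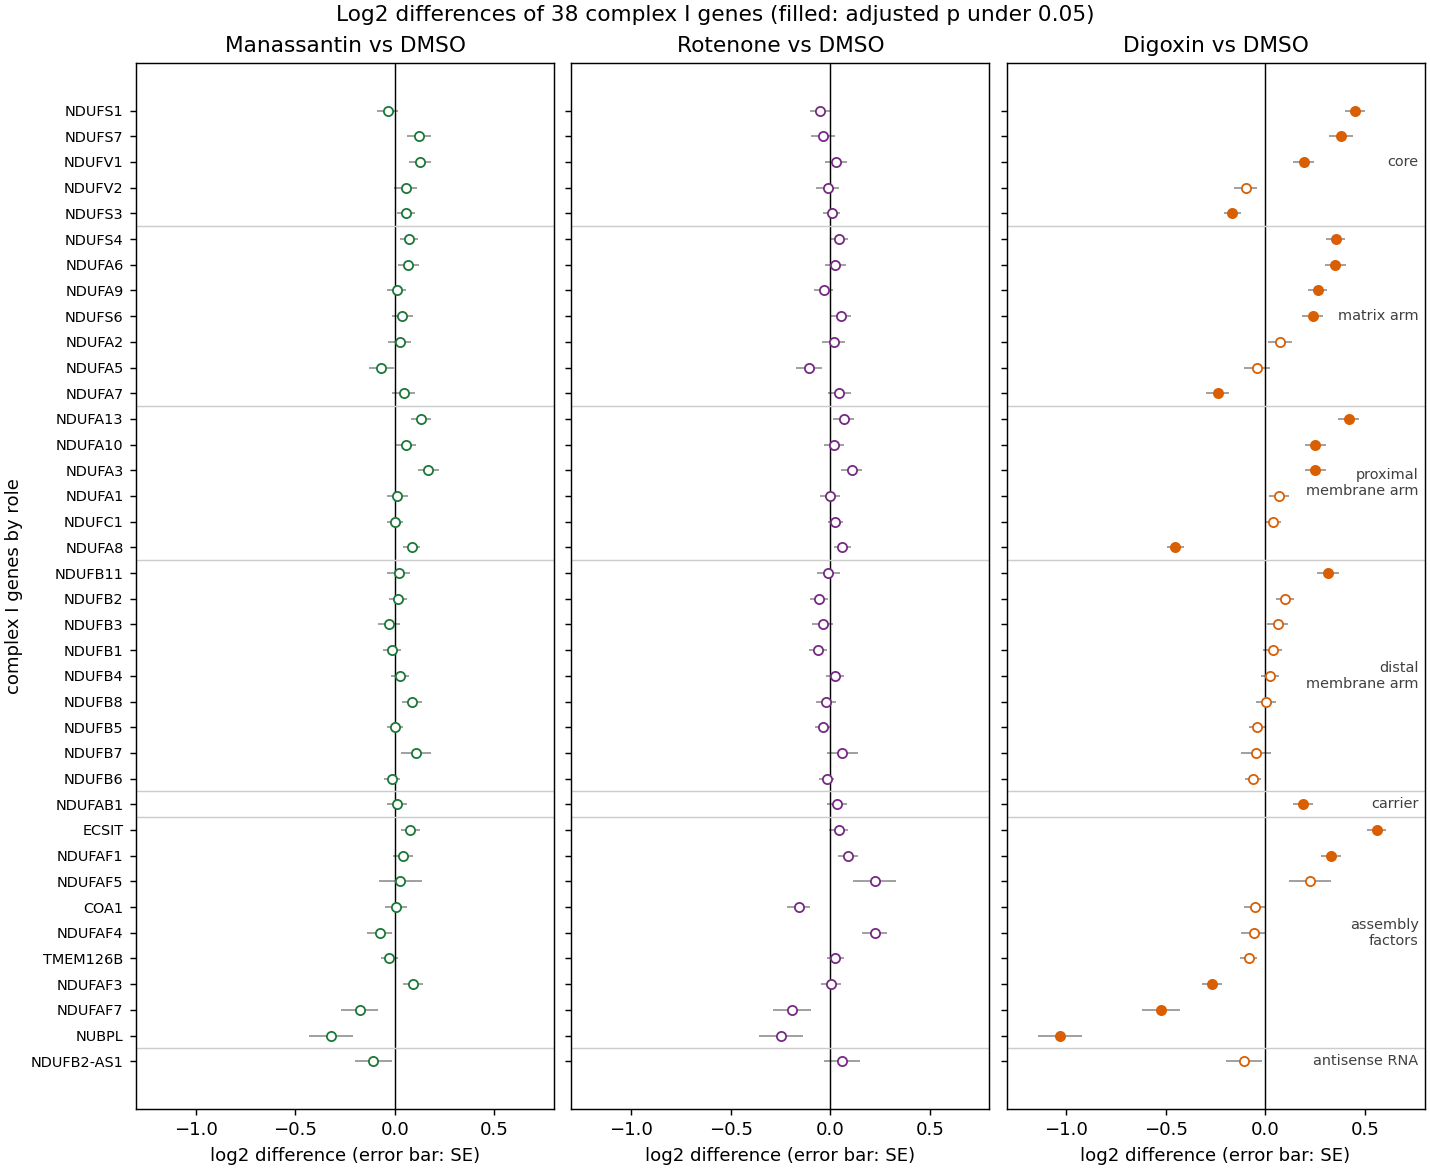
Log2 difference from DMSO (horizontal axis, error bars SE) of the 38 complex I genes, ordered by role (vertical axis), 1 panel per compound; filled points have a limma adjusted p under 0.05. With digoxin 20 genes are filled, from -1.033 (NUBPL) to 0.56 (ECSIT), and with manassantin and rotenone 0 are filled.

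Of the 5 core catalytic subunits measured, 3 rose with digoxin and 1 fell. This count and those of the other roles below stand beside 28.0% of all genes that rose and 26.9% that fell. NDUFS1, the large subunit that holds several iron-sulfur clusters, read 8.9, 8.902 and 8.921 with DMSO and 9.293, 9.399 and 9.385 with digoxin. The lowest digoxin array was above the highest of the other 9 arrays, and the rise was 0.452 (SE 0.051, 1.367-fold, limma adjusted p = 1.03e-05). NDUFS7 read 8.503, 8.433 and 8.451 with DMSO and 8.784, 8.831 and 8.914 with digoxin, without overlap, a rise of 0.381 (SE 0.0603, limma adjusted p = 0.000178). NDUFV1 rose by 0.192 (limma adjusted p = 0.0107). NDUFS3, which joins the NADH-oxidising and quinone-binding parts, read 9.295, 9.335 and 9.322 with DMSO and 9.128, 9.157 and 9.169 with digoxin, a difference of -0.166 (SE 0.044, limma adjusted p = 0.00695). NDUFV2 differed by -0.0993 (limma adjusted p = 0.155).

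Of the 7 accessory subunits of the matrix arm, 4 rose and 1 fell. NDUFS4, whose loss is a known cause of Leigh syndrome, read 9.818, 9.932 and 9.811 with DMSO and 10.171, 10.254 and 10.196 with digoxin. It rose by 0.353 (SE 0.0472, limma adjusted p = 4.3e-05), and the groups were well apart. NDUFA6, a member of the LYR family that docks an acyl carrier protein, rose by 0.352 (SE 0.0534, limma adjusted p = 0.000127). Its second probe set rose alike, by 0.375. NDUFA9, related to short-chain dehydrogenases, rose by 0.263 and NDUFS6, a zinc-binding subunit, by 0.239. NDUFA7 read 9.296, 9.196 and 9.212 with DMSO and 8.926, 9.087 and 8.973 with digoxin, a difference of -0.239 (SE 0.0571, limma adjusted p = 0.00363). NDUFA2 and NDUFA5 differed by 0.0743 and -0.0418 and did not pass.

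Of the 6 accessory subunits of the proximal membrane arm, 3 rose and 1 fell. NDUFA13, also known as GRIM-19 and as a partner of STAT3, read 10.701, 10.628 and 10.593 with DMSO and 11.037, 11.049 and 11.094 with digoxin, a rise of 0.419 (SE 0.0522, limma adjusted p = 2.35e-05). NDUFA10 rose by 0.252 (limma adjusted p = 0.00124) and NDUFA3 by 0.25 (limma adjusted p = 0.00164). NDUFA8, which faces the intermembrane space and is held by disulfide bonds, went the other way. It read 10.495, 10.475 and 10.487 with DMSO, 10.521, 10.553 and 10.566 with rotenone, 10.528, 10.582 and 10.6 with manassantin, and 9.992, 10.08 and 10.028 with digoxin. The 3 digoxin arrays were the lowest of the 12, and the difference was -0.452 (SE 0.0435, 0.731-fold, limma adjusted p = 2.51e-06). NDUFA1 (0.0693) and NDUFC1 (0.0367) did not pass.

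Of the 9 accessory subunits of the distal membrane arm, 1 passed the test. NDUFB11 read 10.599, 10.601 and 10.541 with DMSO and 10.871, 10.865 and 10.952 with digoxin, a rise of 0.316 (SE 0.0563, limma adjusted p = 0.000456). The other 8 lay between -0.0638 (NDUFB6) and 0.1 (NDUFB2), and 8 of the 9 had a 95% confidence interval within 1.25-fold. NDUFB2 was the nearest to the threshold (limma adjusted p = 0.0736), and its second probe set stood at 0.142 (limma adjusted p = 0.0405 over all probe sets). Median centring called 7 of these 8 higher, NDUFB7 excepted, beside its 58.1% of all genes. NDUFAB1, the mitochondrial acyl carrier protein, which is bound at 2 places in the enzyme and also serves fatty acid synthesis, rose by 0.189 (SE 0.0511, limma adjusted p = 0.00781), with no overlap between groups.

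The assembly factors held the largest changes in both directions, with 2 of 9 higher and 3 lower. ECSIT, an adaptor of innate immune signalling that also works with NDUFAF1, TMEM126B and ACAD9 in building the membrane arm, read 7.331, 7.388 and 7.409 with DMSO and 7.911, 7.933 and 7.965 with digoxin. Its rise of 0.56 (SE 0.0475, 1.474-fold, limma adjusted p = 8.43e-07) was the largest among members, and no digoxin array overlapped any other. NDUFAF1 read 8.023, 8.08 and 8.139 with DMSO and 8.39, 8.442 and 8.4 with digoxin, a rise of 0.33 (SE 0.0509, limma adjusted p = 0.000144). TMEM126B, of the same assembly complex, read 10.846, 10.88 and 10.883 with DMSO and 10.791, 10.781 and 10.788 with digoxin, a difference of -0.0827 (limma adjusted p = 0.118). The difference between these partners was not tested.

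NUBPL fell furthest of all members with digoxin. It read 5.219, 4.834 and 5.057 with digoxin against 5.961, 6.001 and 6.245 with DMSO, a difference of -1.033 (SE 0.111, limma adjusted p = 6.44e-06), or 0.489-fold. Its digoxin arrays were below the 9 others. NDUFAF7, a mitochondrial methyltransferase, was dim and read 5.335, 5.133 and 5.372 with DMSO and 4.841, 4.589 and 4.836 with digoxin, a difference of -0.525 (SE 0.095, limma adjusted p = 0.00051). NDUFAF3 read 8.9, 8.917 and 8.893 with DMSO and 8.638, 8.601 and 8.668 with digoxin, a difference of -0.268 (limma adjusted p = 0.000532). Its partner NDUFAF4 differed by -0.0592 (limma adjusted p = 0.438). NDUFAF5, which hydroxylates NDUFS7, was dim and differed by 0.224 (limma adjusted p = 0.0938). Without DMSO replicate 3 it stood at 0.364 (limma adjusted p = 0.00298). COA1 differed by -0.0519 on the probe set used, but by -0.755 (limma adjusted p = 0.000192 over all probe sets) on a further, dim one, so its probe sets disagree. The antisense RNA NDUFB2-AS1, dim as well, differed by -0.107 (limma adjusted p = 0.339).

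**Figure D4:**
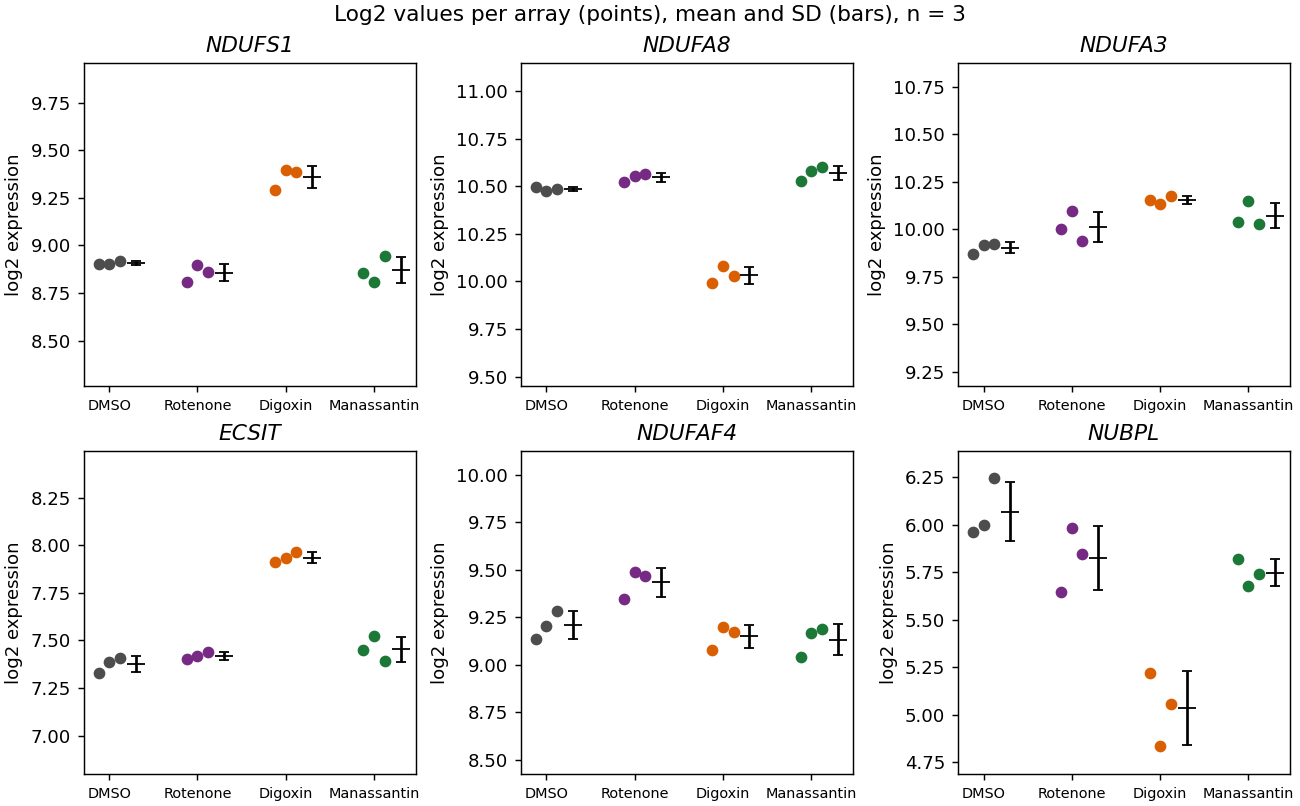
Log2 expression (vertical axis, each panel spanning the same range) of 6 complex I genes on each array (points) by treatment (horizontal axis), with mean and SD (bars, n = 3). The digoxin arrays are the highest for NDUFS1 and ECSIT and the lowest for NDUFA8 and NUBPL, and the rotenone arrays are the highest for NDUFAF4.

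Probe sets with several symbols held 4 more genes of the rule, and their signal cannot be given to 1 gene. Both probe sets of NDUFS8, a core iron-sulfur subunit listed there with 2 microRNA genes, rose with digoxin, by 0.333 (limma adjusted p = 0.000427 over all probe sets) and 0.225 (0.0029). The probe set shared by NDUFS5 and the ribosomal gene RPL10 rose by 0.18 (limma adjusted p = 0.0053). That of NDUFC2 and the readthrough gene NDUFC2-KCTD14 differed by -0.0212 (limma adjusted p = 0.719). A pair of probe sets shared by NDUFC2-KCTD14 and KCTD14 fell with digoxin, by 0.65 and 0.748 on the log2 scale (limma adjusted p = 4.26e-07 and 4.06e-07), and were higher with manassantin than with rotenone, by 0.199 and 0.247 (limma adjusted p = 0.0398 and 0.0292).

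The other complexes of the chain, II to V, were read from 40 nuclear genes picked by symbol. These are listed as subunits, but the inhibitor ATP5IF1 is counted among them. With manassantin, with rotenone and between them 0 of these were called, with medians of 0.0325, 0.0121 and 0.0198. Of all genes 0.970%, 6.94% and 8.47% were called there. With digoxin 19 rose and 3 fell, with a median of 0.139, where 28.0% of all genes rose and 26.9% fell. The same shares of all genes stand beside the counts of the lists below. How these splits depend on the scaling of the arrays was not tested. ATP5MG (0.308) and UQCR11 (0.257) had the largest rises, followed by the dim COX6A2 (0.254), and ATP5F1A, the alpha subunit of ATP synthase, had the largest fall (-0.302). ATP5IF1, the inhibitor of that enzyme, differed by -0.224 and ATP5PB by -0.144.

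Of 15 regulators of respiratory gene expression, TFAM, the packaging and transcription factor of mitochondrial DNA, was the only one called with manassantin, at -0.305 (SE 0.0532, limma adjusted p = 0.0258). MYC was the only one with rotenone, at 0.171 (SE 0.0461, limma adjusted p = 0.047). The genes of this list and of those below were not followed in the alternative fits, so how firm their calls are was not tested. Calls over all genes varied widely there. They ran from 3 to 503 with manassantin, against 116 in the main fit, and from 339 to 1614 with rotenone, against 830. Between these compounds TFB1M was higher with manassantin (0.274), and GABPA (-0.399, dim), TFB2M (-0.319) and MYC (-0.317) were lower. With digoxin 7 rose, led by the coactivator PPRC1 (0.763), the mitochondrial transcription factor TFB2M (0.661) and TFAM (0.483), and 2 fell, TFB1M (-0.76), which methylates mitochondrial rRNA, and POLRMT (-0.641), the mitochondrial RNA polymerase.

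Among 9 genes of iron-sulfur cluster assembly, 0 were called with manassantin or rotenone, and ISCA1 was lower with manassantin than with rotenone (-0.259, limma adjusted p = 0.0313). Digoxin raised 4, led by LYRM4 (0.4), the dim IBA57 (0.311) and FDX1 (0.278), and lowered NFS1, the cysteine desulfurase that supplies the sulfur (-0.426, limma adjusted p = 9.25e-05). Of 8 genes on other routes of electrons to ubiquinone and related functions of the inner membrane, 0 were called with manassantin. Rotenone raised COQ10B, a ubiquinone-binding protein (0.308, limma adjusted p = 0.00363), and lowered GPD2, the glycerol phosphate dehydrogenase that feeds electrons to ubiquinone (-0.464, limma adjusted p = 0.0186). COQ10B was lower with manassantin than with rotenone (-0.43, limma adjusted p = 0.00047). With digoxin 3 rose, COQ10B (0.87), DHODH (0.557) and GPD2 (0.455), and 4 fell, led by SQOR (-1.259), ETFDH (-1.205) and AIFM1 (-0.419).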

How the data were processed

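Expression was measured on 12 arrays, 3 per group, with groups and replicate numbers from the sample titles. Per the labels, total RNA was amplified and biotin-labelled for hybridization. The deposited log2 values are the authors' probe set summaries, with a normalization not given in the sources used here. Base 2 was inferred from their range, 1.6548 to 13.7529; array medians ran from 5.881 to 5.995. Of 22277 probe sets, 62 were controls; the platform annotation gave 1 symbol for 19064, several for 1043 and none for 2108. Each gene was represented by its brightest single-symbol probe set by mean, 11963 genes in all. No filter on dim genes was used, and the number of arrays limits the precision.

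Groups were compared with limma 3.58.1 in R 4.3.3 (lmFit and eBayes, no term but group, residual degrees of freedom 8, prior 3.68), with Benjamini-Hochberg adjustment over the 11963 genes of a comparison, and over 22215 probe sets where stated. Motifs were searched in RefSeq promoters (GRCh38.p14) with Python 3.11.15. Members and lists were chosen with earlier results of these data known. Named were the called members and, in any case, NDUFS1, NDUFS7, NDUFV1, NDUFAB1 and ECSIT, and of other lists up to 3 called genes per direction; others named were chosen after their values were seen. For manassantin and rotenone, deviations of same-numbered arrays from their group means correlated at 0.256, 0.362 and 0.107, each over 0.1. The numbers may therefore pair these arrays. The main fit leaves this pairing out, and the replicate block takes it in. The labels do not say what a number marks. Alternatives were a replicate block, array weights, a trended robust prior, median centring, quantile normalization, averaging a gene's probe sets, leaving out dim genes, fitting 2 groups at a time, dropping each array once and, chosen after seeing the data, an 18S covariate.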

Additional observations from a re-analysis of the deposited data

How the results depend on the processing

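Each comparison was refitted under 16 alternatives, 6 of which left out 1 array. With manassantin against DMSO the count of complex I genes called was 0 except with a trended robust prior, which gave 1 (NDUFA3, limma adjusted p = 0.0373). With rotenone against DMSO it was 1 under the replicate block, quantile normalization, dim genes left out, the mean of probe sets and the trended robust prior, each time NDUFAF4 (limma adjusted p = 0.00987, 0.0437, 0.0191, 0.0494 and 0.00927), and 2 with array weights (NDUFAF4 and COA1). Leaving out 1 array gave 0 to 1; the 1 was NDUFAF5 without DMSO replicate 3 (0.363, limma adjusted p = 0.0353). Between manassantin and rotenone the count was 2 with dim genes left out (COA1 added, limma adjusted p = 0.0438) and 0 to 1 with an array left out. With digoxin it was 20 to 21 with an array left out; the gain was NDUFAF5 without DMSO replicate 3. NDUFAF5 was also called with centring (0.411), the 18S covariate (0.302) and the replicate block.

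With digoxin, centring turned NDUFB5 (0.147), NDUFB6 (0.123) and TMEM126B (0.104) from below 0 to called higher, and the called NDUFS3 to 0.0205. TMEM126B was instead called lower under quantile normalization (-0.141) and the trended robust prior (-0.0827). NDUFV2 was called lower under quantile normalization (-0.157) and COA1 with the mean of probe sets (-0.403). Between manassantin and rotenone, COA1 stood at -0.0465 with the mean of probe sets. The following changes of sign were in genes not called under either setting. Against DMSO with manassantin, NDUFS1 stood at 0.00243 with the 18S covariate, and NDUFAB1 at -0.0203 with median centring, -0.013 with the 18S covariate and from -0.0332 (without manassantin replicate 2) to 0.0504 with an array left out. NDUFV1 with rotenone ran from -0.0068 (without rotenone replicate 1) to 0.0802 with an array left out. Between manassantin and rotenone, NDUFS1 stood at -0.0115 with quantile normalization, -0.0252 with centring, and ECSIT at -0.000732 and -0.00537. With an array left out, NDUFS1 ran from -0.0233 to 0.0447 (below 0 without rotenone replicate 1 or manassantin replicate 3), NDUFAB1 from -0.0668 to 0.0168 (above 0 without rotenone replicate 2 or manassantin replicate 1) and ECSIT from -0.000716 (without manassantin replicate 2) to 0.0657. The cause of the changes was not tested. Against DMSO, same-numbered arrays correlated at -0.0347 to 0.0771 with manassantin, 0.0339 to 0.185 with rotenone and 0.0795 to 0.158 with digoxin. These were not all over 0.1, so no pairing with DMSO was taken. With digoxin, though, each was above the highest correlation between unlike numbers (-0.066, -0.0323 and -0.0208), and a pairing with DMSO is not settled. The replicate block left the count at 0 with manassantin and gave 22 with digoxin (NDUFAF5 and NDUFB2 added). Between manassantin and rotenone the block changed no call, with NDUFAF4 at a limma adjusted p of 0.00239.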
